A study of Mus musculus with 37 samples.

Results

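The ureteric tip at embryonic day E15.5 was compared with the ureteric bud at embryonic day E11.5 across all genes that a whole-genome Affymetrix array measured. The tip is the branching end of the ureteric tree, and the bud is the epithelial outgrowth from which that tree starts. The members were the 3 arrays whose source name is ureteric tip and the 4 arrays whose source name is ureteric bud, 7 of the 37 arrays of the series. All animals were wild-type CD-1 mice, an outbred strain, with sex not known. Each array held a pool of about 50 sections from 5 kidneys, per the labels, and 2 rounds of amplification preceded labelling. The protocol given with every sample names laser capture microdissection, in which a laser cuts chosen cells from a frozen section. The titles of the buds say otherwise: buds 1, 2 and 4 are titled dissection and bud 3 collagenase, while no tip title names a method. Stage and the way the tissue was obtained can therefore not be told apart between these groups. Mesenchyme of E11.5, which was titled both ways, is given beside the results that this touches. The labels do not say which litters a pool came from, so p-values measure the spread between pools. That spread was estimated within the 9 components of the series over all 37 arrays, not from the tips and buds alone.

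The ureteric bud grows into the metanephric mesenchyme and branches there repeatedly. Its tips hold proliferating progenitors and carry the receptor Ret, which together with its coreceptor Gfra1 answers the ligand Gdnf from the surrounding mesenchyme. Ret signalling keeps on the transcription factors Etv4 and Etv5 and the ligand Wnt11, which acts back on the mesenchyme. The trunks that the tips leave behind differentiate into collecting ducts, while tip cells go on branching through development.

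Buds resembled one another more than any bud resembled a tip, while the tips did so only in part. Pearson correlations across genes, which are not independent replicates, were 0.923 to 0.954 between tips, 0.963 to 0.979 between buds and 0.892 to 0.926 between a tip and a bud. Between a tip and a medullary collecting duct array of E15.5 they were 0.900 to 0.943. Deposited signals differed in shape between the groups. The median deposited signal was 292 to 312 in tips and 127 to 133 in buds, and 14.8% to 15.1% of values in tips and 24.5% to 26.4% in buds lay under the 20th percentile of the whole series. The log2 ratio of the 5′ to the 3′ control probe set of Actb, which falls when amplified RNA is shorter, was -2.43 to -1.43 in tips and -4.02 to -3.45 in buds. The same ratio for Gapdh was -4.84 to -4.69 in tips and -3.61 to -2.71 in buds. Neither ratio overlapped between groups, and they ran in opposite directions. Their part in the results below was not tested.

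Levels are given as log2 of the normalized signal, differences as tip minus bud on that scale, and ± as SD, with n = 3 tips and 4 buds. A gene is said to be called, and to have risen or fallen, at a limma adjusted p under 0.05 over all genes tested and a difference of at least 1. Of 15709 genes, 667 were called (4.25%), 320 higher in the tip (2.04%) and 347 lower (2.21%). The median SE was 0.55, with the spread taken over all components. With only the 7 arrays in the fit it was 0.32, and 2951 genes were called (954 higher and 1997 lower). A gene not called here can thus owe this to spread in other components. The 3 tips and 4 buds did not overlap for 5310 genes (33.8%), of which 1591 were higher in the tip (10.1%) and 3719 lower (23.7%). The median difference of all genes was -0.22, so values below are to be read against that shift. How the arrays were scaled changed the balance of the calls: 48% of calls were higher in the tip here, 5.27% with array medians set equal (238 higher and 4277 lower) and 76.2% with the deposited scaling alone (685 higher and 214 lower). The median of all genes was then -0.88 and 0.16. Omission of 1 array left 309 calls without tip 1, 381 without tip 2, 414 without tip 3, 410 without bud 1, 451 without bud 2, 430 without bud 3 and 420 without bud 4. The titles of all tips and of bud 3 carry a date, and no date is shared between a tip and a bud. With date as a fixed term, which drops the other 3 buds, 23 genes were called (13 higher and 10 lower). With bud 3 as the only bud and no date term, 31 were called.

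**Figure D1:**
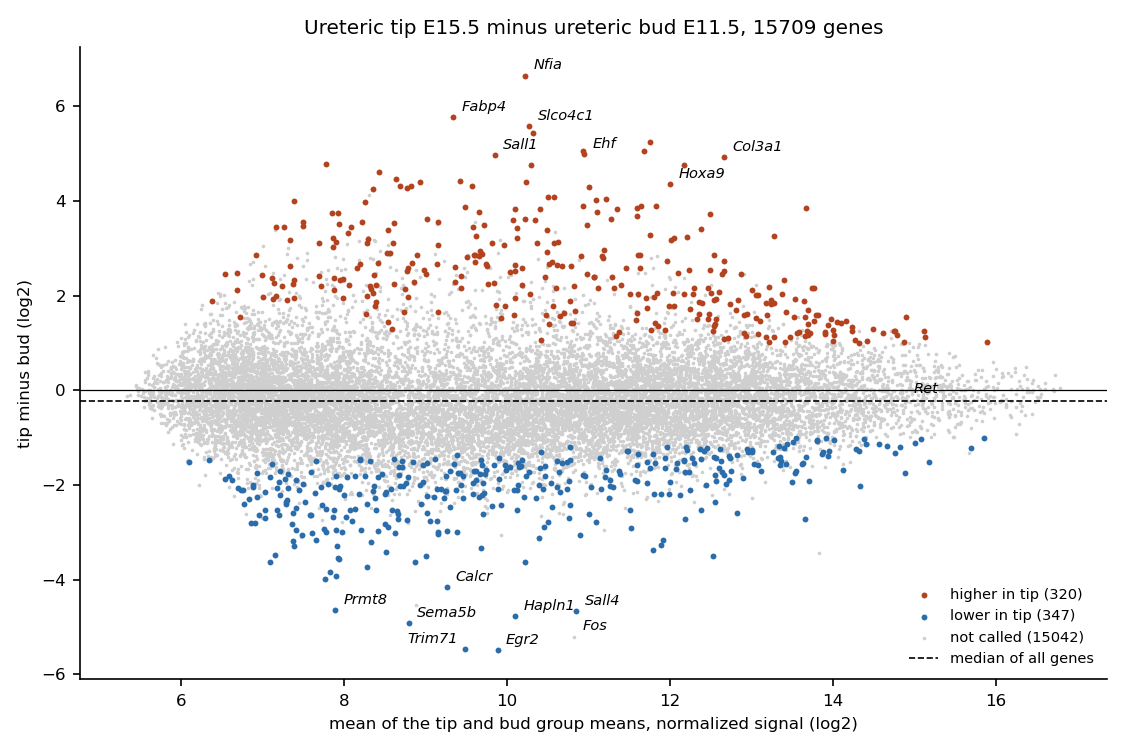
Difference between the ureteric tip and the ureteric bud (tip minus bud, log2) for each of 15709 genes, plotted against the mean of both group means (log2 normalized signal); red points were called higher in the tip, blue points lower and grey points not called. The calls, 320 higher and 347 lower, spread over the whole range of levels, and the dashed line marks the median of all genes at -0.22.

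Ret, Gfra1, Wnt11, Etv4 and Etv5, genes of a branching tip, were not called between tip and bud. Ret, the receptor for Gdnf, had 14.997, 14.98 and 14.42 in the tips, against 15.45, 14.69, 15.06 and 14.71 in the buds. These values overlapped, and the difference was -0.18 (SE 1.51, adjusted p = 0.969). Its coreceptor Gfra1 had 14.56, 14.91 and 14.18 in the tips and 15.23, 14.61, 14.87 and 14.99 in the buds, a difference of -0.37. Wnt11, a secreted ligand made at tips, had 10.80, 11.9996 and 12.39 in the tips, against 12.20, 11.80, 11.35 and 11.84 in the buds, a difference of -0.07 (SE 0.60). Etv5, a transcription factor that Ret signalling keeps on, differed by 0.10 and its partner Etv4 by -0.65. For these 5 genes no difference was detectable beyond the spread between arrays, which for Ret and Etv5 was wide over the series (SE 1.51 and 1.36), so equal levels are not shown. Probe sets of Gfra1 disagreed, however: the one with the largest variance over the 7 arrays gave 3.35 (adjusted p = 0.0167), and for Etv4 the one with the largest variance gave 1.90 (adjusted p = 0.0348). The medullary collecting duct of E15.5, a trunk derivative, had Ret at 9.21 and Wnt11 at 9.09, far under the tip means of 14.80 ± 0.33 and 11.73 ± 0.83.

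Of 18 measured genes of the tip and branching list, 1 rose and 1 fell (11.1% against 4.25% of all genes), and the list median was -0.65 against -0.22 for all genes. The rise was Slco4c1, an organic anion transporter. It had 12.93, 13.53 and 12.74 in the tips and 7.86, 7.56, 6.51 and 7.99 in the buds. All tips lay above all buds, and the difference was 5.58 (SE 1.14, adjusted p = 0.00256), with its other probe set called the same way. The next highest component mean of Slco4c1 at E15.5, that of the renal corpuscle, was 5.04 lower than the tip mean. The 4 renal corpuscle arrays were spread widely, at 5.70, 10.03, 11.18 and 5.20, and 1 medullary interstitium array was at 9.95. The gene that fell was Tmem59l, which encodes a membrane protein of the secretory pathway. It had 8.33, 8.63 and 8.27 in the tips, against 12.16, 12.39, 11.52 and 12.10 in the buds, a difference of -3.63 (SE 0.42, adjusted p = 6.24e-07). In all, 6 of the 18 lay lower in every tip than in any bud (33.3% against 23.7% of all genes). Beside Tmem59l these were Sox8 (-1.81), Adamts18 (-1.71), Lhx1 (-1.14), Emx2 (-0.90) and Ros1 (-0.87), none of them called. Signs turned with the probe set of largest variance for Adamts18 (1.56) and Lhx1 (1.29), and with date as a fixed term for Lhx1 (2.16) and Emx2 (1.30). Omission of any 1 array left both calls of this list in place.

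**Figure D2:**
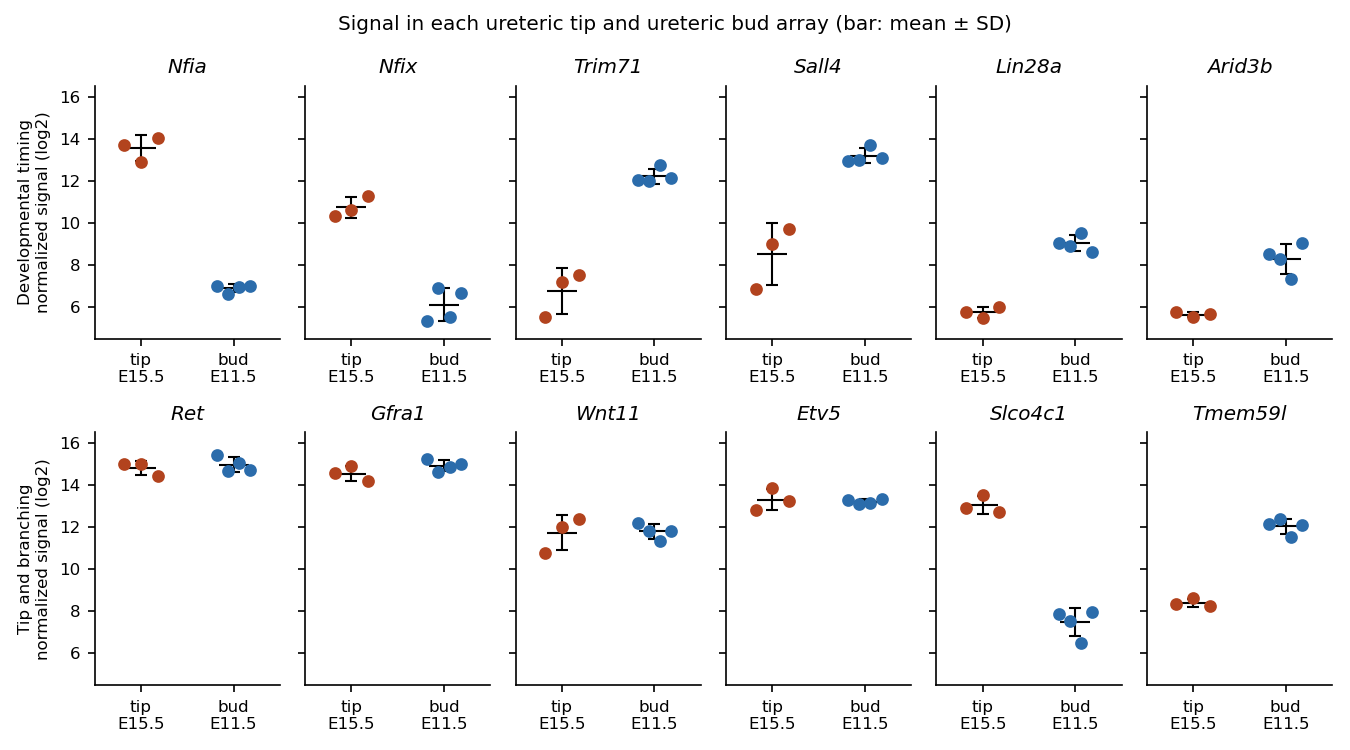
Normalized signal (log2) in each of 3 tip arrays (red) and 4 bud arrays (blue) for 6 developmental timing genes (upper row) and 6 tip and branching genes (lower row), with the mean ± SD as a black bar. The 6 timing genes shown are the called ones of 13 measured, and they do not overlap between tips and buds. Of all 13, 3 lie higher in every tip than in any bud and 6 lower, against 10.1% and 23.7% of all genes. Ret, Gfra1, Wnt11 and Etv5 overlap, and Slco4c1 and Tmem59l do not.

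The label of both groups as ureteric epithelium was borne out by its markers. Calb1, a calcium-binding protein of the ureteric tree, had 16.26, 16.38 and 15.65 in the tips and 16.58, 16.65, 16.64 and 16.60 in the buds. The epithelial adhesion gene Epcam had 15.25 to 15.41 in the tips and 15.15 to 15.497 in the buds. Of 10 measured members of the ureteric epithelium list, 1 rose and none fell (10% against 4.25% of all genes), and the median was -0.10. The rise was Sim1, a transcription factor of the nephric duct. It had 11.21, 12.25 and 10.43 in the tips and 8.90, 9.26, 9.18 and 8.92 in the buds, a difference of 2.23 (SE 0.63, adjusted p = 0.0312). That call depended on the probe set, since the one with the largest variance gave -1.83, and it was lost without any 1 array other than tip 3. Gata3, a transcription factor of the nephric duct, lay higher in every tip (13.61, 14.55 and 14.25) than in any bud (12.02, 11.64, 11.13 and 11.89), but its difference of 2.47 missed the threshold (SE 1.12, adjusted p = 0.22). Of 24 junction and keratin genes, 1 rose (4.17%). This was Ehf, an Ets-family transcription factor of epithelia, with 13.65, 13.65 and 13.01 in the tips and 8.08, 8.13, 8.17 and 9.40 in the buds (4.99, SE 0.93, adjusted p = 0.000992), while another probe set gave -0.29 without a call. Its mean was 13.42 in the medullary collecting duct and 6.60 to 9.54 in the other 4 components of E15.5.

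Genes that time development were called in both directions. Lin28a and Trim71 are RNA-binding genes of early embryonic cells that are held down by the let-7 microRNAs as tissues mature, Sall4 is a zinc finger factor of embryonic stem and progenitor cells, and the nuclear factor I genes are transcription factors that come on late in many lineages. Of 13 measured members of this list, 2 rose and 4 fell (46.2% against 4.25% of all genes), while the median of -0.44 lay near that of all genes, because the list holds both kinds. Trim71 had 5.53, 7.21 and 7.52 in the tips, against 12.02, 11.99, 12.75 and 12.11 in the buds. Trim71 fell by 5.46 (SE 0.87, adjusted p = 0.000141). Its other probe set gave -1.13 and was not called. Sall4 had 6.86, 8.99 and 9.70 in the tips and 12.94, 12.99, 13.70 and 13.09 in the buds (-4.67, SE 0.90, adjusted p = 0.00135). Its second probe set, a shared one, gave 1.73 without a call. Lin28a had 5.74, 5.46 and 6.01 in the tips and 9.06, 8.92, 9.51 and 8.61 in the buds (-3.29, SE 0.56, adjusted p = 0.000315). Arid3b, a DNA-binding factor that is also a let-7 target, had 5.74, 5.53 and 5.65 in the tips and 8.50, 8.26, 7.32 and 9.03 in the buds (-2.64, SE 0.57, adjusted p = 0.00428). All 4 groups of values were separate, with every tip below every bud.

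Nfia gave the largest rise of all genes named by the rule. It had 13.71, 12.87 and 14.05 in the tips and 7.02, 6.63, 6.96 and 6.98 in the buds, a difference of 6.65 (SE 0.53, adjusted p = 1.77e-10). Of its 4 other probe sets, all pointed the same way and 2 were called. Nfix had 10.34, 10.58 and 11.29 in the tips and 5.35, 6.88, 5.54 and 6.68 in the buds (4.62, SE 1.28, adjusted p = 0.0289). It lost its call without tip 1, 2 or 3 or bud 1, 3 or 4, with an adjusted p of up to 0.108, so that 1 member of the list was called higher there. With date as a fixed term Nfix gave -1.89 and Nfia 5.60, neither called. For Nfib the probe set with the highest mean gave 1.31 and was not called, whereas 3 others of the gene gave 4.10, 3.42 and 4.16 and were called when all probe sets were tested. The rise of Nfia was not particular to the ureteric tree: its mean was 14.11 in the medullary collecting duct, 12.93 in the S-shaped body, 14.34 in the renal corpuscle and 15.13 in the medullary interstitium, but 7.88 in the proximal tubule of the same day. The mesenchyme of E11.5 had Nfia at 7.23 where titled dissection or collagenase and at 6.68 where titled LCM, the short form of laser capture. Other members of the list did not pass the test, among them Hmga2 (-0.44), Igf2bp1 (-0.95) and Igf2bp3 (0.02), which encode a chromatin protein and RNA-binding proteins of fetal tissue. The probe set of Igf2bp3 with the largest variance gave -2.08 (adjusted p = 0.0106).

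Hox genes, which record position along the body axis, rose by paralog group, the number that marks a gene's place in its cluster. Of 26 measured Hox genes, 7 rose and none fell (26.9% against 4.25% of all genes). All 7 belonged to paralog groups 8 to 11, of which 11 genes were measured, with a median of 2.29. Of the 15 measured genes of groups 1 to 7 none was called, 10 had negative values and the median was -0.43. Hoxa9 had 14.59, 13.91 and 14.05 in the tips and 9.59, 9.94, 10.66 and 9.10 in the buds, which is a rise of 4.36 (SE 0.35, adjusted p = 1.97e-10). Hoxa10 had 11.86, 11.19 and 11.54 in the tips and 7.67, 7.48, 8.85 and 7.06 in the buds (3.77, adjusted p = 5.7e-07). Hoxd10 had 11.71, 11.88 and 12.02 in the tips and 7.82, 7.77, 9.21 and 8.27 in the buds (3.60, adjusted p = 4.03e-05). These 3 genes did not overlap between tips and buds, and Hoxa9 and Hoxa10 each had a second probe set that was called. Hoxc8 (3.33), Hoxc9 (2.34), Hoxc10 (2.29) and Hoxa11 (1.30) also rose. Hoxd8 (-0.08) and Hoxb9 (0.43), of the same paralog groups, did not pass the test. With array medians set equal, 7 Hox genes rose and 2 fell, against 238 and 4277 of all 15709 genes. Without tip 1, 4 Hox genes were called. With date as a fixed term and bud 3 as the only bud, Hoxa9 gave 2.82, but Hoxd10 gave -0.32 and Hoxc8 -1.13.

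All 7 of these genes had a higher mean in the medullary interstitium than in the tip, for example Hoxa10 at 13.69 and Hoxd10 at 13.79. The medullary collecting duct had Hoxa9 at 13.72, Hoxa10 at 11.61 and Hoxd10 at 11.99, close to the tip means. They were high in E11.5 mesenchyme titled LCM as well, with Hoxa9 at 15.05, Hoxa10 at 12.28 and Hoxd10 at 13.65. Interstitial marker genes rose in the tips too (below), and the part of such cells in the Hox values was not tested. In bulk samples, more cells of a type and more RNA per cell cannot be told apart. Beside these, Hoxd3os1, an antisense transcript of the Hoxd cluster, rose by 4.75 (SE 0.90, adjusted p = 0.00121), with 14.53, 15.23 and 13.88 in the tips and 9.65, 10.05, 10.14 and 9.32 in the buds. Its other probe set gave -1.12 and was not called, and Hoxd3 itself differed by -1.38 without a call.

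**Figure D3:**
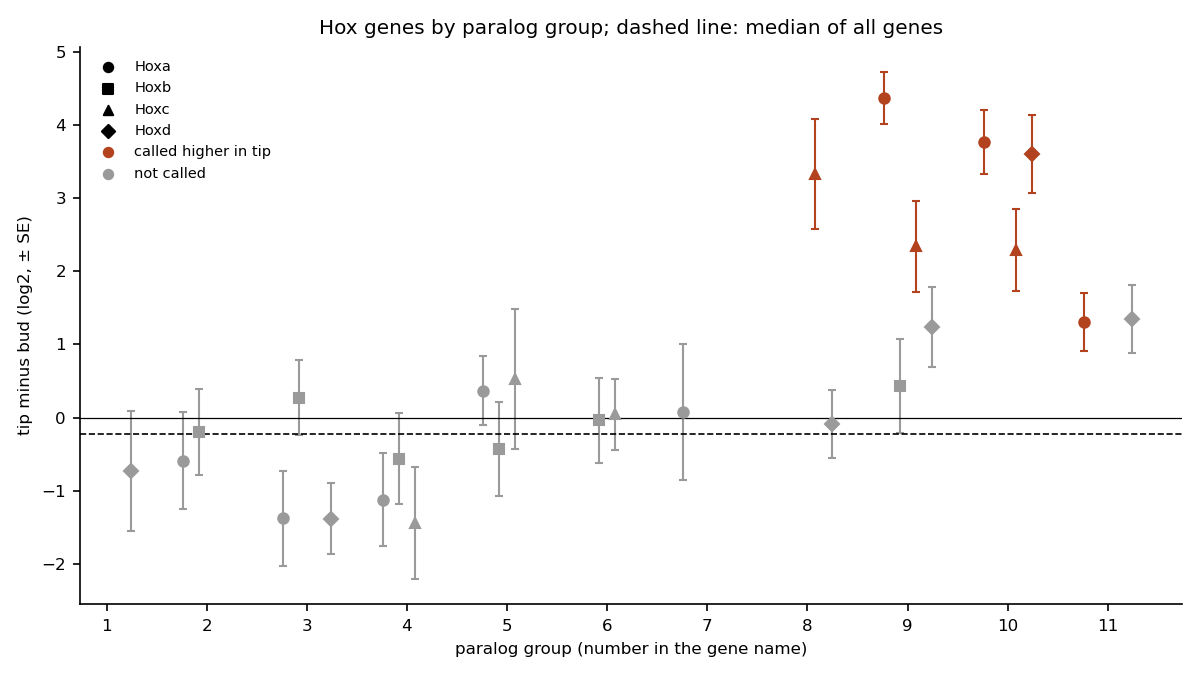
Difference (tip minus bud, log2, ± SE) of 26 Hox genes by paralog group, with a marker shape for each cluster, red for genes called higher in the tip and grey for those not called. The 7 called genes lie in groups 8 to 11, with Hoxa9 at 4.36 as the highest, and the 15 genes of groups 1 to 7 lie between -1.44 and 0.52.

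The leading genes in the higher direction were the 15 largest called differences without overlap. Of these, Ube2s, a ubiquitin-conjugating enzyme that works with the anaphase-promoting complex, had 14.03, 14.41 and 14.18 in the tips and 9.19, 9.49, 8.86 and 9.05 in the buds (5.06, SE 0.45, adjusted p = 1.72e-09). Thoc2, a subunit of the THO complex that couples transcription to mRNA export, had 14.48, 14.65 and 13.99 in the tips and 8.93, 9.40, 8.97 and 9.23 in the buds (5.24, adjusted p = 3.83e-05). Thoc2l, a near-identical copy of Thoc2, rose by 5.44, and the array cannot separate their transcripts with certainty. Neither of the other probe sets of Thoc2 was called, at 2.19 and -0.63. Gopc, a PDZ protein of the Golgi, rose by 4.76 (adjusted p = 2.81e-06), but both its other probe sets pointed down. Its sign turned with a smaller offset (-0.45) and with array medians set equal (-1.24). Each setting picked the probe set with the highest mean anew, so those values can come from another probe set. Of these 15 genes 13 had other probe sets, and for 6 of them at least 1 of those was called the same way. Over all 320 genes that rose, 214 had other probe sets and 71 had such support.

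Thoc2, Ube2s and Gopc were low in 1 component of E15.5, the proximal tubule. Thoc2 had means of 14.14 in the medullary collecting duct, 13.15 in the S-shaped body, 13.01 in the renal corpuscle and 13.22 in the medullary interstitium, but 6.70 in the proximal tubule. Ube2s had 13.31 to 14.15 in those 4 components and 9.78 in the proximal tubule, and Gopc had 11.94 to 12.87 in the 4 and 6.50 in the proximal tubule. For Thoc2 and Gopc the proximal tubule lay below the bud means of 9.13 and 7.92, and for Ube2s it lay nearer the bud mean of 9.15 than the tip mean of 14.21. Its 2 arrays had deposited medians of 182 and 204, between those of tips and buds, and log2 Actb ratios of -3.43 and -4.59, below those of all tips. Their log2 Gapdh ratios of -5.30 and -5.61 were below those of all tips and all buds. Other leading rises were low there too, with Nfia at 7.48 and 8.27 and Clec1a at 5.67 and 5.64, while Col3a1 (15.51 and 15.499) and Fabp4 (12.24 and 11.72) were not. Over the 320 genes that rose, the component mean was nearer the tip than the bud for 92.2% in the medullary collecting duct and for 55.3% in the proximal tubule, against 67.3% and 52.3% over all genes. The part of array quality in this pattern was not tested.

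Fabp4, a lipid carrier of fat and vessel cells, had 12.95, 11.48 and 12.24 in the tips and 5.24, 7.02, 5.63 and 7.90 in the buds (5.78, SE 0.59, adjusted p = 4.34e-08), while its other probe set gave -0.51 without a call. Its mean was 12.82 in the medullary collecting duct and 13.39 in the medullary interstitium. Sall1, a zinc finger factor required for kidney formation, had 13.00, 12.43 and 11.57 in the tips and 8.25, 6.79, 7.70 and 6.70 in the buds (4.97, SE 0.67, adjusted p = 1.05e-05). Sall1 was at 12.17 in both kinds of E11.5 mesenchyme. In all, 8 genes that rose had a tip mean more than 1 above every other component mean of E15.5, Slco4c1 and Nfix among them. For Nfix this held for the means only. Its proximal tubule arrays were split, at 5.49 and 11.63, and the higher one lay above every tip (10.34, 10.58 and 11.29). The SD of Nfix was 4.34 in the proximal tubule and 3.10 in the S-shaped body. Rgn, a calcium-binding enzyme, had 12.37, 12.35 and 11.65 in the tips and 8.99, 8.73, 9.32 and 9.03 in the buds (3.10, adjusted p = 0.0156). Irs2, an adaptor of the insulin receptor, had 8.77, 9.89 and 9.74 in the tips and 5.74, 6.13, 5.75 and 7.36 in the buds (3.22, adjusted p = 0.0119). Rgn and Irs2 were singled out after their values were seen. Clec1a and Dcn lost their calls without tip 1, with adjusted p = 0.0812 and 0.133.

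Among the 15 leading genes in the lower direction, all 15 had a bud mean above all 6 component means of E15.5, against 4013 of all 15709 genes. The tip mean is among the 6 and lies below the bud mean for every gene that fell. Of the 15, 10 stayed under the pooled median of 7.89 in every tip. Sema5b, a guidance cue of the semaphorin family, had 5.59, 6.25 and 7.17 in the tips and 12.08, 11.27, 10.61 and 11.04 in the buds (-4.91, SE 0.78, adjusted p = 0.000129). Hapln1, which links hyaluronan to proteoglycans in the matrix, had 8.88, 7.54 and 6.71 in the tips and 12.75, 12.04, 13.22 and 11.95 in the buds (-4.78, adjusted p = 0.000782), and all 3 of its other probe sets were called the same way. Calcr, the calcitonin receptor, had 8.18, 7.35 and 6.02 in the tips and 11.94, 11.16, 11.25 and 11.01 in the buds (-4.16, adjusted p = 0.000716). Hapln1 was also high in E11.5 mesenchyme, at 11.36 where titled dissection or collagenase and 11.16 where titled LCM. Calcr was not, at 6.004 and 8.11.

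Prmt8, an arginine methyltransferase of the brain, had 5.47, 5.61 and 5.61 in the tips and 10.00, 9.80, 10.92 and 10.13 in the buds (-4.65, SE 0.52, adjusted p = 4.94e-07). Kcnh5, a potassium channel, had 5.24, 5.36 and 5.20 in the tips and 9.27, 9.26, 8.11 and 8.97 in the buds (-3.63, adjusted p = 6.24e-07). Scn4b, a sodium channel subunit, Grik1, a kainate receptor, and Ap3b2, a subunit of the neuronal form of the AP-3 coat, fell by 3.62, 3.56 and 3.55. For each of these 5 genes every tip lay below every bud, as the rule for leading genes required. Of 6 measured neural crest and neural markers none was called, with 0 higher and 1 lower at an unadjusted limma p under 0.05, and their summed normalized signal was 1317 to 2254 in tips and 1394 to 2708 in buds. The remaining leading falls were Apex2, a DNA repair endonuclease whose other probe set gave 0.85 without a call, Sdr42e1, Sptlc3 and the genes named elsewhere. Sptlc3 lost its call without tip 1 or tip 3, with an adjusted p of up to 0.104.

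The signalling genes around the tip changed in a few members. Of 20 measured Wnt pathway genes, 2 rose and 1 fell (15% against 4.25%). Wnt6, a ligand made by ureteric tips, had 8.45, 10.05 and 10.17 in the tips and 12.56, 11.92, 11.26 and 12.21 in the buds (-2.43, SE 0.54, adjusted p = 0.00511), and was lost without tip 1 (adjusted p = 0.0896). Wnt4, the ligand that turns mesenchyme into epithelium, had 10.54, 11.63 and 12.08 in the tips and 8.88, 6.75, 5.59 and 8.97 in the buds (3.87, SE 0.92, adjusted p = 0.00946). It lost its call without tip 3 or bud 3, at an adjusted p of up to 0.0595. Sfrp2, a secreted Wnt inhibitor, rose by 2.16 and lost its call with array medians set equal. The Wnt targets Axin2 (-0.88) and Lef1 (-0.90) were not called.

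Of 19 genes of the retinoic acid, Bmp and hedgehog pathways, 3 rose and none fell (15.8% against 4.25%). Bmp2, a ligand of the Bmp family, had 11.44, 10.84 and 10.22 in the tips and 6.95, 6.55, 5.63 and 6.98 in the buds (4.31, SE 0.71, adjusted p = 0.000241). Aldh1a2, the main enzyme of retinoic acid synthesis in kidney stroma, had 11.31, 11.20 and 11.34 in the tips and 8.74, 8.69, 9.53 and 8.18 in the buds (2.49, adjusted p = 0.018). Id2, an inhibitor of helix-loop-helix factors, rose by 1.27, while its other probe set gave -1.40 without a call. Aldh1a2 and Id2 each lost their call without any of 4 arrays, tips 1 and 2 among them in both cases. Aldh1a3, the synthesis enzyme of the ureteric bud, had 11.27, 12.81 and 11.54 in the tips and 14.52, 14.54, 13.40 and 14.11 in the buds, and its difference of -2.27 was not called (adjusted p = 0.27). Another probe set of Aldh1a3 gave -2.58 and was called lower (adjusted p = 0.0017 over all probe sets).

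The feedback genes of receptor tyrosine kinases, which Ret and Fgf receptors switch on and which damp them, had negative values for all 9 measured members, against 62.4% of all genes, with a median of -0.65. Of the 9, 1 fell and none rose (11.1% against 4.25%). Spry1, the inhibitor that sets Ret activity in the duct, had 12.69, 12.85 and 13.05 in the tips and 14.18, 14.32, 14.75 and 14.38 in the buds. It fell by 1.54 (SE 0.41, adjusted p = 0.0223), and lost its call without tip 1, 2 or 3 or bud 3 or 4, at an adjusted p of up to 0.103. Dusp5 (-2.20) and Dusp4 (-1.82), phosphatases of the same pathway, lay lower in every tip than in any bud and were not called. Spry2 (-0.65), Dusp6 (-0.47) and Spry4 (-0.34) overlapped between groups.

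Most genes of the mature collecting duct (14 of 20 measured) differed by less than 1. Of the 20 members 1 rose (5% against 4.25%), while 17 had positive values and the median was 0.82 against -0.22 for all genes. In all, 8 lay higher in every tip than in any bud, against 10.1% of all genes, and none lay lower in every tip. Fxyd4, a regulator of the sodium pump in collecting ducts, had 10.69, 10.29 and 11.79 in the tips and 8.51, 7.91, 7.49 and 8.47 in the buds. It rose by 2.83 (SE 0.59, adjusted p = 0.00327), and its mean was 14.96 in the medullary collecting duct. Elf5, an Ets factor of the duct, had 11.24 to 11.65 in the tips and 9.60 to 10.50 in the buds, without overlap, and its difference of 1.33 was not called. The sodium channel subunit gene Scnn1g (0.95) and the water channel gene Aqp3 (0.91) also lay higher in every tip than in any bud, without a call. The water channel gene Aqp2 (0.87) overlapped. The duct mean of the list was 10.75, above the 8.76 to 9.36 of the tips and the 8.13 to 8.48 of the buds.

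Immediate early genes, which cells switch on within minutes of a stimulus such as handling or enzyme treatment, were lower in the tips than in the buds. Of 19 measured members of the immediate early and heat shock list, none rose and 4 fell (21.1% against 4.25%). The list median was -1.68 against -0.22 for all genes. Of the 19, 13 lay lower in every tip than in any bud, against 23.7% of all genes. For 3 of the called genes a motif of this response lies close to the start, and 200 bases before the start are shown for them from RefSeq on GRCm38.p6. Capitals mark a CArG box, which serum response factor binds, in Egr2 (chr10:67537669-67537868, plus strand, first base 72 before the start) and Zfp36 (chr7:28379229-28379428, minus strand, 58 before), and the cAMP response element TGACGTCA in Dusp1 (chr17:26508473-26508672, minus strand, 143 before).
Egr2: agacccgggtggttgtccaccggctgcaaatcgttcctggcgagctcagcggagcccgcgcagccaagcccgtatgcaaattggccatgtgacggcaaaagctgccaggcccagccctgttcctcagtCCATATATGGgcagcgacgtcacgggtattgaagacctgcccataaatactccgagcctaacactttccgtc
Zfp36: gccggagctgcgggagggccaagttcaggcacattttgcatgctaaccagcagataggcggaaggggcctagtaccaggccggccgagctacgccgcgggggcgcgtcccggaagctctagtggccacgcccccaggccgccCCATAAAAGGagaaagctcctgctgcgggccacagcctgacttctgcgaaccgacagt
Dusp1: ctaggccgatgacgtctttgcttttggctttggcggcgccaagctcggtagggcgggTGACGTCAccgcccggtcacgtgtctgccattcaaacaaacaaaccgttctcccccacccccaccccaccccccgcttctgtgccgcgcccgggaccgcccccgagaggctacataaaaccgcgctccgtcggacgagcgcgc
The pattern of each motif is the same on both strands, although the stretch marked in Zfp36 is not itself symmetric. The motifs do not overlap each other here. Over all 32851 promoter windows of 300 bases, 1.63% hold a CArG box and 1.79% this cAMP response element. Of the 17 list members with a window, 2 hold the first and 2 the second, and the window of Jun holds neither. For Egr2 there are 5 windows, and the one shown was picked because it holds the motif.

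Egr2, a zinc finger factor of this class, had 7.82, 6.73 and 6.87 in the tips, against 12.39, 12.40, 12.72 and 13.01 in the buds. It fell by 5.49 (SE 1.27, adjusted p = 0.00751), as did its other probe set. Zfp36, which destabilizes mRNAs, had 9.03, 8.45 and 9.53 in the tips and 11.998, 11.48, 11.95 and 12.16 in the buds (-2.89, adjusted p = 0.00708). Dusp1, a phosphatase of stress kinases, had 9.60, 8.90 and 9.74 in the tips and 12.20, 11.98, 12.02 and 12.26 in the buds (-2.70, adjusted p = 0.0103). Both lost their call without tip 2, at adjusted p = 0.0565 and 0.0677, so that 1 member of the list stayed called there. Jun, a subunit of the AP-1 factor, fell by 1.26 with overlapping arrays, at 12.05, 12.11 and 12.94 in the tips and 13.77, 13.62, 12.87 and 14.28 in the buds. It lost its call without tip 1 or 2 or bud 1, 2 or 4. Fos had 7.83, 7.74 and 9.10 in the tips and 13.45, 12.80, 13.88 and 13.58 in the buds, and its difference of -5.20 missed the threshold (SE 1.62, adjusted p = 0.0567). Fosb (-4.53, adjusted p = 0.0568) and Egr1 (-3.43, adjusted p = 0.104) likewise did not overlap. The heat shock genes Hspa1a (-0.18), Hspa1b (0.85) and Dnajb1 (0.25) overlapped.

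Some of these genes also differed by the method named in the titles within the mesenchyme of one stage. Between mesenchyme arrays titled dissection or collagenase (n = 4) and those titled LCM (n = 3), none of which is a tip or bud array, 39 genes were called (0.248%), 11 higher (0.07%) and 28 lower (0.178%). That count was 12, 20 and 9 without each LCM array, mesenchyme replicates 1, 3 and 4, and 22 without replicate 6, titled collagenase. Of the 19 list members 6 were higher where dissection or collagenase was named, none was lower, and the list median was 1.44. Egr2 had 11.73 to 13.78 in mesenchyme titled dissection or collagenase and 6.04 to 8.93 in that titled LCM (5.81, SE 0.74, adjusted p = 3.54e-05). Fos had 14.83 to 15.499 in mesenchyme titled dissection or collagenase and 6.55 to 8.36 in that titled LCM (7.53, adjusted p = 7.89e-05), and Fosb 13.68 to 14.40 and 5.38 to 6.99 (7.61, adjusted p = 1.41e-12). Zfp36 had 11.23 to 11.84 in mesenchyme titled dissection or collagenase and 9.05 to 9.53 in that titled LCM, a difference of 2.21 that was not called (adjusted p = 0.0685). Dusp1 had 12.54 to 13.30 in mesenchyme titled dissection or collagenase and 10.95 to 11.71 in that titled LCM, and its 1.44 was not called (adjusted p = 0.427). Jun had 11.80 to 12.82 in mesenchyme titled dissection or collagenase and 11.38 to 12.01 in that titled LCM, and its 0.68 was not called either. Ier2, another gene of the class, overlapped (0.13). The tips lay below LCM mesenchyme for Dusp1 and above it for Jun. When the mesenchyme was split by method in the fit, 9 members of the list were called lower in the tips, against 343 of all 15709 genes. Stage cannot be told apart from method for the tips and buds themselves.

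**Figure D4:**
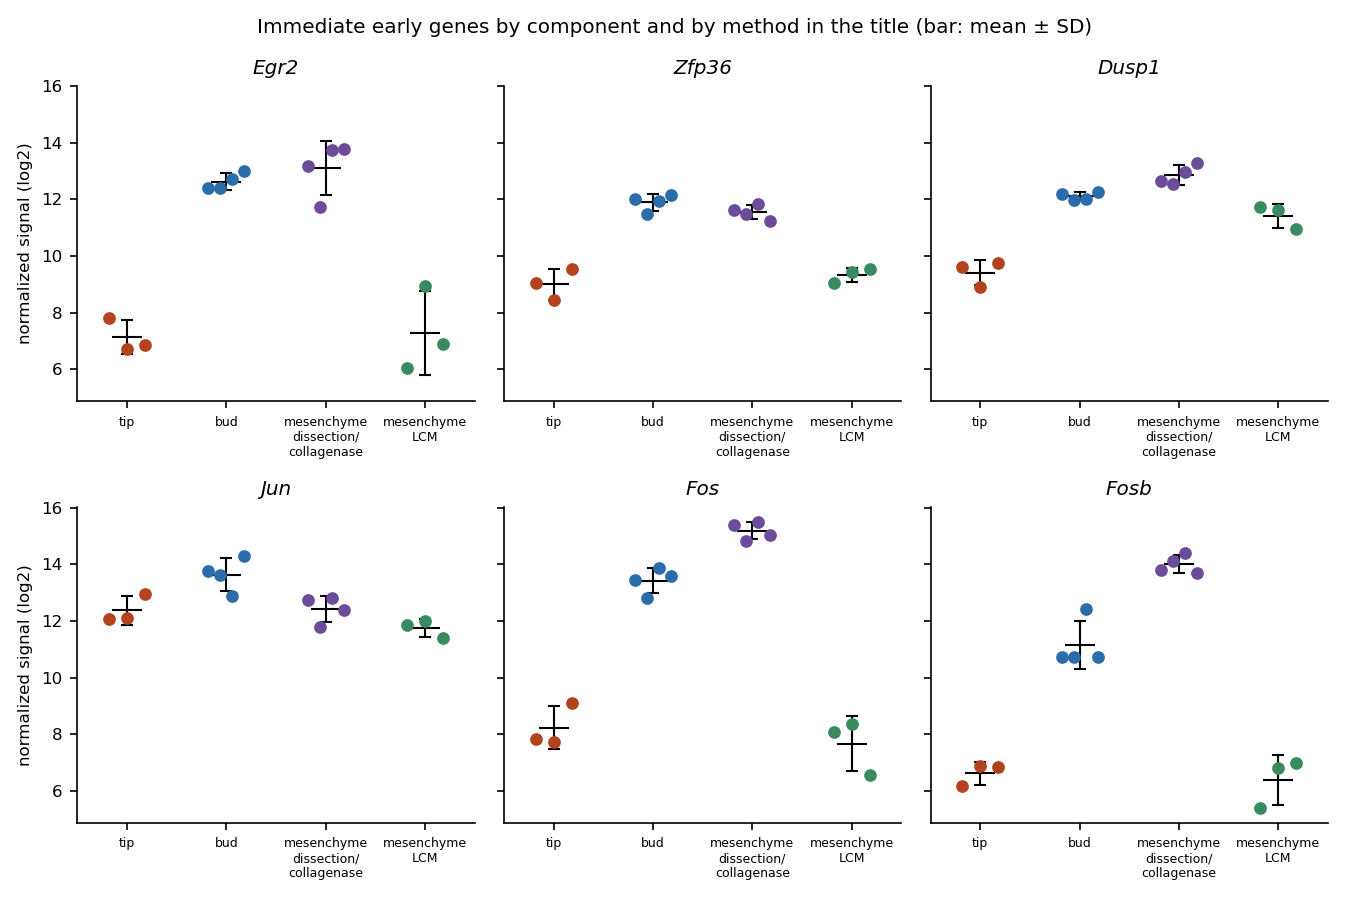
Normalized signal (log2) of 6 immediate early genes in each array of the tip (3), the bud (4), E11.5 mesenchyme titled dissection or collagenase (4) and E11.5 mesenchyme titled LCM (3), with the mean ± SD as a black bar. For Egr2, Fos and Fosb the tips lie with LCM mesenchyme, between 5.38 and 9.10, and the buds lie at 10.72 or above.

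Calls shared with this contrast were counted. Its spread per gene came from the same 37 arrays as for tip versus bud, so the calls are not independent. Of the 347 genes that fell, 1 was called higher in mesenchyme titled dissection or collagenase, which is Egr2 (0.288% of the falls, against 0.07% of all genes, and 9.09% of those 11 genes). Of the 320 that rose, 4 were called lower there (1.25% of the rises, against 0.178% of all genes, and 14.3% of those 28 genes). None of the 13 developmental timing or 26 Hox genes was called in that contrast. Only 0.248% of all genes were called there, so this cannot show whether these genes differ by method. Their list medians there were 0.47 and 0.02, against 0.03 for all genes.

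Marker genes of the interstitium, the loose stroma around the tubules, rose in the tips. Of 19 measured members 11 rose and none fell (57.9% against 4.25%), with a median of 3.16 against -0.22 for all genes, and this held under all 3 scalings. Col3a1, a fibrillar collagen, had 15.99, 14.19 and 15.19 in the tips and 9.43, 10.10, 11.14 and 10.13 in the buds (4.92, SE 0.64, adjusted p = 4.56e-06). Foxd1, a transcription factor of stromal progenitors, had 12.27, 10.89 and 12.004 in the tips and 6.61, 7.498, 8.11 and 7.41 in the buds (4.32, adjusted p = 0.0059). Penk, the enkephalin precursor gene, rose by 4.43, Pdgfra, a growth factor receptor, by 3.90 (another probe set gave -0.01 without a call) and Meis2, a homeobox factor, by 3.49. The summed normalized signal of the list was 51985 to 185564 in tips, 10419 to 15520 in buds and 345547 to 457375 in the medullary interstitium. The array means of the list were 12.05, 10.28 and 11.36 in tips 1, 2 and 3, so tip 2 had the least of these transcripts and tip 1 the most. In the buds, Alx1, Dcn, Lum and Ntn1 stayed under the pooled median of 7.89 in every array. Without tip 2 13 members were called, and without tip 1 8. For 158 of the 320 genes that rose (49.4%) the interstitium mean lay above the tip mean, against 54.9% of all genes.

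Markers of the cap mesenchyme, the nephron progenitors that sit on the tips, moved in part. Of 15 measured members 5 rose and none fell (33.3% against 4.25%), with a median of 2.24. They were Sall1, Itga8, Eya1, Hoxc10 and Wt1. Itga8, the integrin through which mesenchyme meets the bud, had 12.58, 12.18 and 12.54 in the tips and 8.10, 8.04, 7.85 and 8.12 in the buds (4.41, SE 0.52, adjusted p = 6.24e-07). Eya1, a transcriptional cofactor and phosphatase, had 12.30, 12.44 and 12.21 in the tips and 8.48, 8.01, 9.38 and 8.05 in the buds (3.84, adjusted p = 0.0296), and lost its call without any 1 array but bud 3. The markers that define these progenitors most closely did not pass the test: Six2 had 9.59, 9.78 and 9.91 in the tips and 9.12, 9.66, 9.81 and 9.46 in the buds (0.25, adjusted p = 0.919), and Cited1 differed by -0.40. Without tip 1, 2 members of the list were called. The summed signal of the list was 35277 to 36740 in tips and 14345 to 16164 in buds.

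Of 15 renal vesicle genes 3 rose, Bmp2, Wnt4 and Cdh6, and none fell (20% against 4.25%). Cdh6 lost its call without tip 1 or bud 2. Of 8 podocyte genes 2 rose (25% against 4.25%), the transcription factor genes Dach1 (3.89) and Tcf21 (2.42), of which Tcf21 lost its call without tip 3. The other probe sets of Dach1 gave 1.95 and -0.0020, neither called. Nphs1, the slit diaphragm gene that defines these cells, had 6.95, 5.86 and 6.96 in the tips and 7.19, 7.19, 6.60 and 5.79 in the buds. All 8 podocyte genes had a higher mean in the interstitium arrays than in the tips. Of 14 endothelial, 13 macrophage, 11 erythroid, 13 proximal tubule and 9 loop and distal tubule markers limma called none, and 0, 0, 0, 2 and 0 were higher and 0, 0, 2, 0 and 1 lower at an unadjusted p under 0.05. The defining macrophage genes C1qa, C1qb and Lyz2 stayed under the pooled median in all tips and all buds. Of the 13 macrophage markers, however, 10 had positive values. In all, 3 of them lay higher in every tip than in any bud and 0 lower, against 10.1% and 23.7% of all genes. Their summed normalized signal was 2200 to 5216 in tips and 1572 to 1722 in buds. The part of interstitial, cap or other cells in the remaining rises was not tested.

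**Figure D5:**
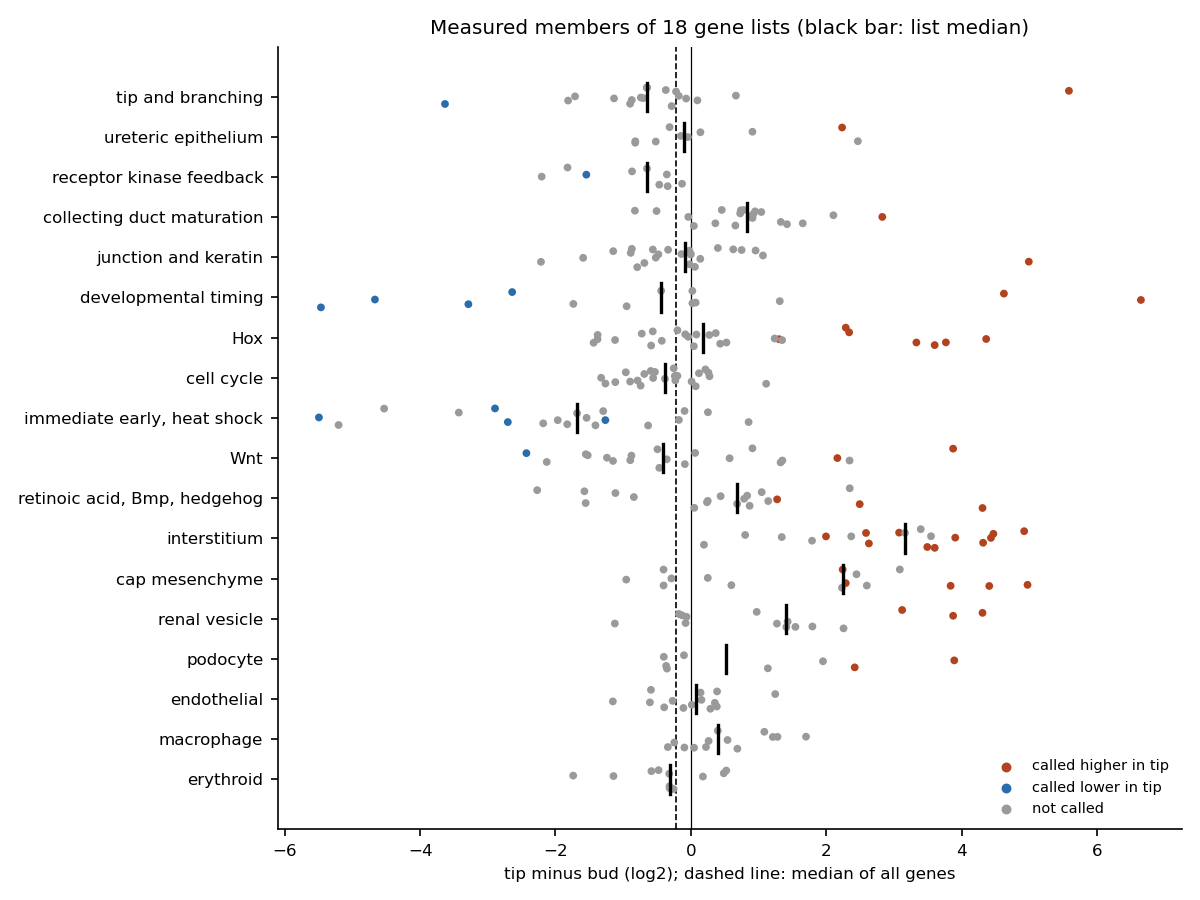
Difference (tip minus bud, log2) of each measured member of 18 gene lists, with members called higher in the tip in red, called lower in blue and not called in grey, and the list median as a black bar. The interstitium list lies farthest to the right with a median of 3.16, the immediate early and heat shock list farthest to the left with -1.68, and the dashed line marks the median of all genes at -0.22.

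Of 23 measured cell cycle genes limma called none in either direction, with 1 higher and 3 lower at an unadjusted p under 0.05, and 19 differed by less than 1. Mki67, a marker of cycling cells, had 15.20, 15.03 and 14.89 in the tips and 15.28, 14.52, 14.60 and 14.90 in the buds (0.21, adjusted p = 0.814). With array medians set equal, 12 of the 23 were called lower, against 4277 of all 15709 genes. The median of the 23 was then -1.39, against -0.88 for all genes. Of 8 cell cycle inhibitors 1 fell, Cdkn1a, the p53 target gene, with 10.52, 10.04 and 9.47 in the tips and 11.47, 11.94, 12.34 and 12.48 in the buds (-2.05, adjusted p = 0.0373). It lost its call without any 1 array but bud 1. Of 14 imprinted growth genes Nnat rose by 2.25 and Sgce fell by 2.19 (14.3% called against 4.25%). Nnat lost its call without tip 2, tip 3 or bud 3, and Sgce without any 1 of the 7 arrays. For Igf2, the main fetal growth factor, the probe set with the highest mean gave -0.06. Its other probe set averaged 10.87 ± 0.40 in the tips and 5.77 ± 0.60 in the buds and was called higher (5.10, SE 0.79, adjusted p = 3.38e-05 over all probe sets).

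Of 17 glycolysis and hypoxia genes 2 fell and none rose (11.8% against 4.25%). Pfkl, the liver form of phosphofructokinase, had 10.95, 11.99 and 11.63 in the tips and 13.99, 14.32, 13.62 and 14.53 in the buds (-2.59, SE 0.49, adjusted p = 0.00128), while another probe set gave 0.99 without a call. Aldoa, an aldolase, fell by 1.12 (another probe set gave 0.06), and lost its call without tip 1 or bud 2 and with the deposited scaling. Of 19 oxidative phosphorylation genes 1 fell, Atp5b, a subunit of ATP synthase, by 1.29 (5.26% against 4.25%). Of 23 basement membrane genes Itga8 and Frem1 rose and the collagen gene Col4a2 fell by 1.22 (13% called against 4.25%). Frem1 lost its call without tip 1 or 3, and Col4a2 without tip 1 or bud 1. Of 8 polycystic kidney and cilia genes limma called none, and none passed an unadjusted p under 0.05.

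Arrays that are neither tip nor bud gave a second stage contrast. The 5 other components of E15.5 (17 arrays) were set against E11.5 mesenchyme titled LCM (3 arrays), which also holds differences between tissues, and 1030 genes were called (6.56%), 482 higher and 548 lower. Without mesenchyme replicate 1, 3 or 4 the count was 343, 295 or 371. It shares the LCM mesenchyme with the method contrast above, so those 2 are only set side by side. Of the 320 genes higher in the tip than in the bud, 86 were higher at E15.5 there as well (26.9% of the 320 and 17.8% of the 482), against 3.07% of all genes, and 10 were lower. Of the 347 lower in the tip, 77 were lower at E15.5 (22.2% of the 347 and 14.1% of the 548), against 3.49% of all genes, and 3 were higher. Nfia rose there by 6.20 (adjusted p = 1.19e-11), Fabp4 by 5.81 and Ube2s by 3.85. Sall4 fell by 4.27 (adjusted p = 0.000408), Trim71 by 3.47 and Arid3b by 2.43. Lin28a (-1.25, adjusted p = 0.0924), the leading Hox genes such as Hoxa9 (-0.79) and Hoxd10 (-1.32), and Slco4c1 (1.25) were not called there. For 295 of the 347 genes that fell (85%), all 6 component means of E15.5 lay below the bud mean, against 4013 of all 15709 genes. The tip mean is among the 6 and lies below the bud mean for every gene that fell.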

How the data were processed

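Gene expression was measured on 37 Affymetrix whole-genome arrays, 3 of ureteric tip and 4 of ureteric bud. The deposited values are linear signal intensity per probe set, made with GCOS (version not given), per the submitters' processing notes; the authors' scaling left a 2% trimmed mean near 1500 on each array, as the files show. Of 45101 probe sets, 64 were controls, 34958 had 1 gene symbol in the platform annotation, 932 had several and 9160 had none, and the last 3 kinds were left out. Symbols of 34754 probe sets matched RefSeq.

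From these values log2(signal + 34.62) was taken, the offset being the 20th percentile of all values. Arrays were quantile normalized together. Probe sets above the pooled median of 7.89 in at least 2 arrays were kept (35801), and the one with the highest mean stood for each gene, which gave 15709 genes. For the 7497 genes with several probe sets this choice can change a value. limma 3.58.1 in R 4.3.3 fitted 1 mean for each of 9 components over all 37 arrays, with an intensity trend and 28 residual degrees of freedom. The code was tested on simulated data. The number of arrays limits the precision.

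Members and the 27 gene lists (449 symbols, 407 measured) were chosen with earlier results of these data known. Named genes were the 15 largest called differences without overlap in each direction, leaving out symbols that are only accessions or clone numbers, every member of 5 lists, and up to 6 members of each other list. Genes outside this rule are named with their list or as chosen after their values were seen. The replicate numbers in the titles did not pair the arrays: the deviations of same-numbered tips and buds correlated at -0.080, 0.013 and 0.123.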

Additional observations from a re-analysis of the deposited data

Results flagged for a closer look

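In 14 of 167 named genes, 1 of the 4 bud arrays stood far from the other three by Dixon's criterion, which chance meets in about 1 of 20 groups. The tips, with 3 arrays, were not examined this way. Bud 1 stood apart for Spint1 (12.57), Hmga2 (15.86) and Adm (9.33). Bud 2 stood apart for Nfia (6.63) and Ppargc1a (10.38). Bud 3, the array titled collagenase, stood apart for Trim71 (12.75), Igf2bp3 (13.39), Fosb (12.41), Slc2a2 (6.26) and Isl1 (10.21). Bud 4 stood apart for Ehf (9.40), Aqp4 (6.41), Spry2 (10.81) and Spred1 (13.20). For Fosb the tips and buds did not overlap with that array included. Nor did they for Nfia, Ehf and Trim71, as the rule for leading genes required.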

How the results depend on the processing

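The count of 667 genes (320 higher, 347 lower) became 4515 (4277 lower) with array medians set equal, 685 higher and 214 lower with the deposited scaling alone, which was chosen after seeing the data, 2875 (866 and 2009) with quantile normalization over the 7 arrays, 1850 (1116 and 734) with the probe set of largest variance, 3673 (1130 and 2543) with array weights, 2951 (954 and 1997) with only the 7 arrays in the fit, 23 (13 and 10) with date as a fixed term, and 31 (20 and 11) with only the bud titled collagenase. The cause was not tested, apart from the fewer arrays in the last 2. The fit with the replicate block by title number called 2706 (906 and 1800), of which 651 were among the 667; those numbers do not pair the arrays. Omission of 1 array gave 309 to 451 calls, 173 to 229 higher and 136 to 222 lower. The mesenchyme contrast (39 calls) gave 17 with array medians set equal, 200 with only its arrays and 9 to 45 without 1 array. The E15.5 contrast (1030 calls) gave 2562, 472 and 295 to 371. The remaining settings, among them other offsets, filters and no intensity trend, gave 608 to 918 calls. The 918 came with the mean of all probe sets and held 458 of the 667 in the same direction. The others of these settings held 586 to 644 of the 667, and the deposited scaling held 456.

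Sign changes are listed here only for named genes called under the main settings or under the changed setting. Others, such as those of Adamts18, Lhx1 and Emx2 given above, came without a call in either and are left out. Signs turned for Gopc with a smaller offset (-0.448), array medians set equal (-1.24), the deposited scaling (-0.205) and 7-array quantiles (-0.453). Signs also turned for Igf2bp3 with array medians set equal (-1.19), and for Sim1 with 7-array quantiles (-1.87). With the probe set of largest variance they turned for Igf2bp3 (-2.08), Sim1 (-1.83), Etv4 (1.90), Gfra1 (3.35), Spred1 (2.29) and Tyms (2.32), which are other probe sets of the gene. With date as a fixed term they turned for Nfix (-1.89), Aldh1a2 (-1.53), Sgce (1.12), Hoxd10 (-0.318), Hoxc8 (-1.13), Jun (0.438) and Foxd1 (-2.08). Of the 64 named genes called, 41 stayed called without each of the 7 arrays in turn, and none in all 25 alternatives; of the 103 not called, 60 were called in at least 1.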

Other observations

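Further genes that fell in the tips are given here, chosen after their values were seen and with no list behind them. Slc32a1, the vesicular carrier of inhibitory transmitters, averaged 5.78 ± 0.37 in the tips and 8.95 ± 0.28 in the buds (-3.18, limma adjusted p = 0.00155). Gap43, a growth cone protein, averaged 6.80 ± 1.22 in the tips and 10.22 ± 0.35 in the buds (-3.41, limma adjusted p = 0.0184). The sodium channel gene Scn3a fell by 3.06. The homeobox gene En2 fell by 3.21. Lhx8, another homeobox gene, averaged 5.42 ± 0.33 in the tips and 8.90 ± 0.61 in the buds (-3.48, limma adjusted p = 4.38e-05).

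Among the 8 genes that rose and had a tip mean more than 1 above all other component means of E15.5, Lcn2, a secreted iron carrier of kidney epithelia, had 6.97, 8.40 and 8.40 in the tips and 5.31, 5.62, 5.22 and 5.62 in the buds (2.48, limma adjusted p = 0.000291). Reg3b, a secreted lectin, had 11.31, 7.66 and 7.72 in the tips and 7.10, 5.76, 5.82 and 7.26 in the buds, so that tip 1 lay far above the other tips. Ammecr1 rose by 3.51.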
